A study of Macaca mulatta with 38 samples.

Results

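Lentiviral barcodes were compared between the T and B lymphocytes of 1 rhesus macaque on the 8 days after transplantation for which both lineages have a library. These are days 32, 119, 187, 266, 365, 393, 494 and 553, so the comparison holds 16 of the 38 libraries of the study, 8 of T and 8 of B. They were chosen by their labelled cell type and day, and the T library of day 536 was left out because no B library shares its day. The animal, ZL34, was a male of 4 years. Its CD34+ blood stem and progenitor cells were mobilised with G-CSF and AMD1300, as the labels spell it, and transduced with a barcoded lentiviral library at a multiplicity of infection of 25. They were returned after total body irradiation (TBI), and cidofovir was given each week at 5 mg/kg against cytomegalovirus. All 16 libraries come from this transplant, and T and B of a day are labelled alike but for the cell type. How T and B were separated was not stated in the labels, and DNA barcodes carry no marker by which the cell types could be checked. Host cells without a barcode leave no reads, and each lineage and day has 1 library with no replicate.

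A barcode is a short random DNA tag that enters the genome with the vector and is passed to every descendant of the marked cell. A barcode read in both T and B can therefore mark a cell whose progeny entered both lineages, or several copies of the tag. Incomplete separation of T and B cells or libraries would also list it in both, and was not tested. B cells are made in the bone marrow and are replaced from it continuously. T cells are made in the thymus from progenitors that arrive from the marrow, and mature T cells can persist and divide in the periphery. T and B output of a single clone can for these reasons follow different time courses, and barcode reads cannot tell new production from division of old cells.

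The sequences of 10 barcodes are shown first because they stand for the patterns described below. The fixed start is in lower case, the random part that identifies the clone is in capitals, and the part from the sequencing adapter on is left out. Barcodes are numbered by their mean share over all 38 libraries. bc1 and bc2 belong to the group with the largest share of both lineages at day 553. bc7 belongs to a group abundant in T and lower in B on the later days, and bc18 to a group that reached its highest T share at day 494. bc113 and bc123 were listed in T and never in B. bc387 was higher in B, and bc872 and bc944 were listed in B on all 8 days and never in T. bc82 had about equal means in the lineages.
bc1: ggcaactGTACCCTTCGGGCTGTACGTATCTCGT
bc2: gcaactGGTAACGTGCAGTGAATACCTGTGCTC
bc7: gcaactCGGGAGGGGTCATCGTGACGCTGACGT
bc18: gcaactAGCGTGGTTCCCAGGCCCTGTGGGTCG
bc113: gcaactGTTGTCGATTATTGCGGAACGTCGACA
bc123: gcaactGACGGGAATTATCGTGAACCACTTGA
bc387: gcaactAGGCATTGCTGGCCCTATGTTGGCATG
bc872: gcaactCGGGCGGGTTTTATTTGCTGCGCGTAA
bc944: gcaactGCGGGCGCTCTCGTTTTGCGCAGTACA
bc82: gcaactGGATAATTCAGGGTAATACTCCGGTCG
The random part has 27 bases in 9 of these and 26 in bc123. Over bases 7 to 33 of the sequences no pair in the table differed by fewer than 3 bases, and 4 pairs differed by 3.

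Reads per library ran from 766039 to 3464834 in T (median 3044060) and from 789584 to 3365960 in B (median 2798369). The smallest count above 0 was 101, so a listed 0 is taken as 100 reads or fewer. That is at most 0.0029% of reads in the deepest of the 16 libraries and 0.0131% in the shallowest. It is an inference from the values, and each fold given as a lower bound uses it. The libraries of day 494 are the shallowest of both lineages, and the T library of day 32 stands apart with 525 listed barcodes and almost no similarity to any other library.

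B was carried by many more barcodes than T, and T reads were concentrated in few. The number of barcodes that together hold 50% of reads was 206, 182, 35, 39, 36, 67, 15 and 7 in T on the 8 days in order of time. In B it was 5030, 2314, 3088, 1764, 1441, 2043, 790 and 279, so B needed more barcodes than T on every day. The effective number of barcodes is e raised to the Shannon entropy of a library's shares, the number of equally abundant barcodes that would give the same entropy. It was 11.5-fold higher in B by the geometric mean over days (410 in T and 4721 in B). The mean log2 ratio of T to B was −3.52 (SD 0.99, n = 8 days), with T lower on 8 of 8 days (two-sided exact sign-flip permutation p = 0.00781, adjusted p = 0.0195 over 10 matched comparisons). This p is the smallest that 8 days allow. The ratio of B to T in effective number was 30.0, 4.74, 28.7, 9.11, 10.2, 9.45, 15.7 and 5.43 on the 8 days, so it was widest at days 32 and 187.

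The count of listed barcodes differed less. T listed 8450 barcodes and B 8349 at day 119, and B listed 30.1-fold more at day 32 and 1.97 to 6.24-fold more on the other days. The mean log2 ratio of T to B was −1.72 (SD 1.49, n = 8 days, T lower on 7 of 8 days, exact permutation p = 0.0156, adjusted p = 0.0312). It did not pass when day 32, 187, 266, 365, 393, 494 or 553 was left out (adjusted p = 0.0521 to 0.0625, exact permutation), and passed without day 119. The 10 most abundant barcodes held more of the reads in T than in B on 8 of 8 days, by 20.5 percentage points (SD 10.1, means 30.5% and 10.0%, exact permutation p = 0.00781, adjusted p = 0.0195).

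These differences did not pass once rare barcodes were set aside. Counting only barcodes with at least 0.02% of their library, so that the listing limit was the same everywhere, the mean log2 ratio was −1.50 for the effective number (adjusted p = 0.127) and −0.49 for the listed number (adjusted p = 0.367). The 10 most abundant barcodes then held 15.2 points more in T (adjusted p = 0.123). With this floor the direction turned on some days. The effective number was higher in T at days 32 and 553 (475 against 71.8 and 31.9 against 20.8), and the top 10 held more of B on the same days (19.6% against 5.29% and 81.5% against 70.0%). This floor kept 51.0 to 99.8% of T reads but 1.81 to 77.4% of B reads, and at day 32 it kept 505 barcodes in T and 74 in B.

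Shared barcodes made up more of T than of B in reads. As parts of the lists, the same shared barcodes are counted on both sides. Their percent is therefore always higher in the shorter list, which was that of T on each day but day 119. Of the T list, 33.1%, 30.6%, 54.6%, 43.9%, 60.2%, 51.3%, 53.9% and 45.9% was also listed in B of the same day, in order of time. The same shared barcodes, 174 at day 32 and 549 to 3020 afterwards, were 1.10%, 31.0%, 8.75%, 22.3%, 25.6%, 26.0%, 16.7% and 18.2% of the B list. In reads, barcodes shared with same-day B held 34.6%, 63.7%, 76.1%, 73.5%, 85.9%, 69.7%, 69.0% and 79.9% of T. Barcodes shared with same-day T held 1.28%, 40.4%, 17.2%, 40.3%, 46.9%, 45.0%, 29.0% and 57.5% of B reads. On each day more of T than of B reads lay in shared barcodes, by 34.3 percentage points (SD 12.1, n = 8 days, 8 of 8 days higher, exact permutation p = 0.00781, adjusted p = 0.0195). B lists more barcodes than T on 7 of 8 days, which favours a larger shared part of T, and its part in this difference was not tested. With the 0.02% floor the difference was 10.8 points (adjusted p = 0.260), and T was the higher on 5 of 8 days. B was then the higher at day 32 (4.79% against 1.05%), day 393 (30.8% against 13.1%) and day 553 (83.8% against 63.1%).

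Over the whole course 16555 barcodes were listed in some T library and 36063 in some B library. 12279 were listed in both, which is 74.2% of the T list and 34.0% of the B list, percents that differ only through list length. Of the 12279, 6568 were listed in T and B on the same day at least once. 4276 barcodes were listed in T only and 23784 in B only. The T-only barcodes held 31.3% of day 32 T, 13.0% of day 119 T and 2.40 to 6.46% from day 187. The B-only barcodes held 67.0% of B reads at day 32 and 16.6 to 38.9% afterwards. Among the 10930 barcodes listed in both lineages after day 32, 57.3% were first listed in B, 19.8% on the same day and 22.8% first in T. Among the 168 of them that reached 0.1% of a library after day 32, 50.6% were first listed in B, 43.5% on the same day and 5.95% first in T. First listing was counted from day 32 on, when B listed 15815 barcodes and T 525. B lists more barcodes than T, which favours an earlier first listing in B, and its part in this order was not tested.

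Barcodes recurred in both lineages after day 32, and the recurring ones carried more of T than of B. 298 barcodes were listed in all 7 later T libraries and 1018 in all 7 later B libraries, of which 138 were in both sets. Of the 298, 10 were never listed in B. Of the 1018, 74 were never listed in T. The recurrent T barcodes held 48.0 to 72.9% of T reads from day 119, and the recurrent B barcodes 19.9 to 56.2% of B reads. Being listed on all of these days is part of the choice, so these shares are a description. 10622 T barcodes (64.2%) and 18638 B barcodes (51.7%) were listed on a single day of their lineage.

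Libraries of a lineage resembled each other more closely in T than in B. Similarity was Pearson's r between 2 libraries over barcodes, taken after a square root of their shares, and barcodes are no independent replicates of each other. Over the 21 pairs of libraries after day 32 it was 0.375 to 0.797 among T (median 0.671) and 0.274 to 0.621 among B (median 0.459). Between neighbouring days it was −0.002, 0.576, 0.718, 0.790, 0.797, 0.783 and 0.664 in T and 0.002, 0.380, 0.387, 0.523, 0.582, 0.607 and 0.551 in B. T was the higher in 6 of 7 intervals, by 0.185 (SD 0.108, exact permutation p = 0.0312, adjusted p = 0.0521), which did not pass.

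**Figure D1:**
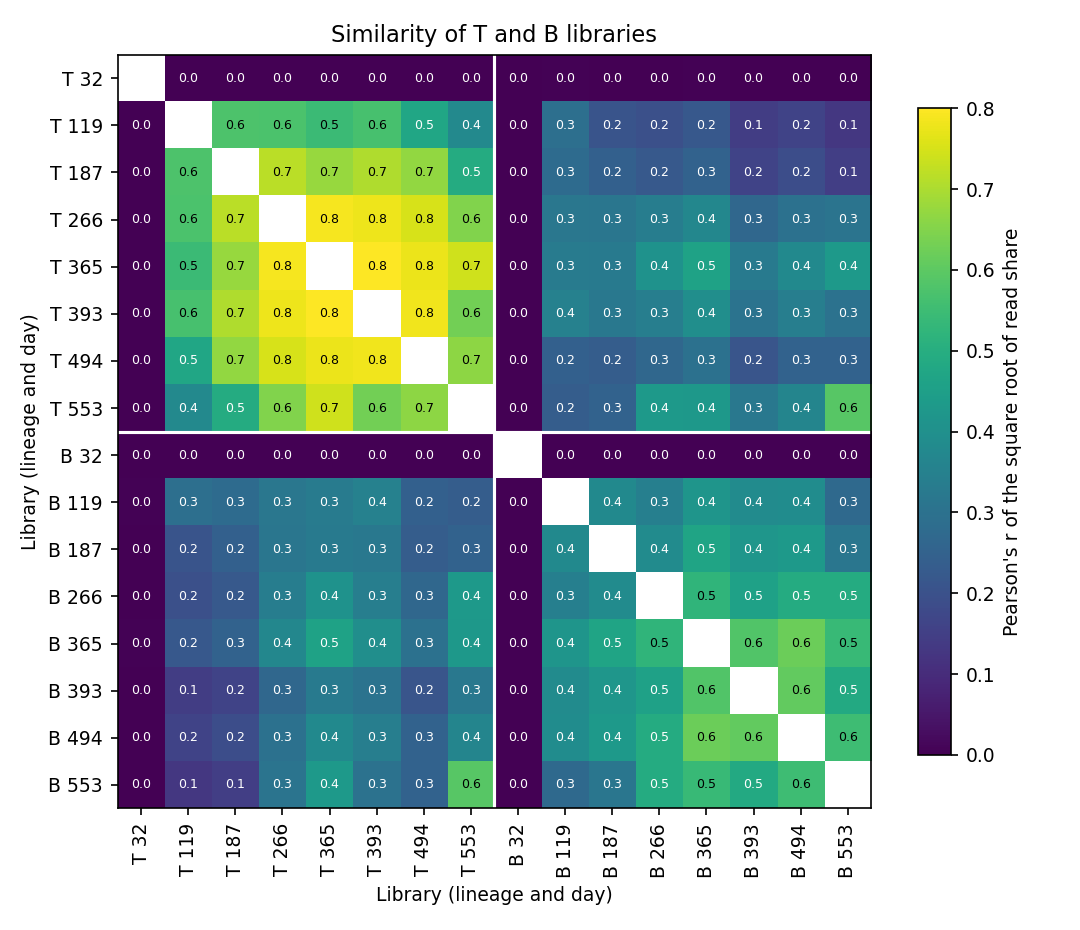
Similarity (Pearson's r of the square root of read share, rounded to 1 decimal) between all pairs of the 16 libraries, T first and B second in order of day, with the diagonal left blank. The T block after day 32 is brighter than the B block (medians 0.671 and 0.459), and both libraries of day 32 are near 0 against all others.

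On average, T and B of the same day shared more than T and B of different days. The same-day r was 0.003, 0.294, 0.247, 0.341, 0.460, 0.306, 0.252 and 0.593 on the 8 days. Its mean was 0.312, against 0.213 over pairs of different days, a difference of 0.0987 (exact permutation over all 40320 pairings of days, p = 2.48e-05, adjusted p = 0.000248, the smallest p that 8 days allow). Without day 32 the difference was 0.0707, and without any 1 day it was 0.0707 to 0.113 with exact permutation p = 0.000198 each time, the smallest that 7 days allow. The test takes the days as exchangeable, so it does not set the same day apart from days near in time. The own day was the best match for 3 of 8 T libraries, those of days 119, 365 and 553. The other 5 T libraries had a higher r with B of another day. T of day 393, for example, had r 0.394 with B of day 365 and 0.306 with B of its own day. After day 32, T had a median r of 0.320 with earlier B libraries and 0.252 with later ones (21 pairs each).

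The similarity of T to B was also set beside that of each to myeloid cells. On the 7 days that T, B, granulocytes (Gr) and monocytes (Mono) share, r of T with B averaged 0.313, of T with Gr 0.422 and of T with Mono 0.459. Without day 32 these means were 0.364, 0.490 and 0.533, and without day 494 they were 0.323, 0.457 and 0.501. The difference from T with Gr was −0.110 (SD 0.142, lower on 5 of 7 days, exact permutation p = 0.109, adjusted p = 0.137). From T with Mono it was −0.146 (SD 0.167, lower on 6 of 7 days, exact permutation p = 0.0781, adjusted p = 0.112). At day 187 the r of T was 0.247 with B, 0.503 with Gr and 0.612 with Mono, and at day 494 it was 0.252, 0.214 and 0.202. B had a mean r of 0.349 with Gr and 0.334 with Mono. Its r with T differed from these by −0.0367 (SD 0.104, exact permutation p = 0.359, adjusted p = 0.399, n = 7 days) and −0.0209 (SD 0.0948, exact permutation p = 0.594, adjusted p = 0.594). None of the 4 differences passed, and the smallest p that 7 days allow is 0.0156.

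Sharing rose over the course in the point estimates, and no trend passed after adjustment over the 4 trends tested. The r of T with B had Spearman's rho of 0.643 against day (exact permutation p = 0.0962, adjusted p = 0.192, n = 8) and Pearson's r of 0.737 (exact permutation p = 0.0314, adjusted p = 0.0732). Without days 32 and 553, the farthest from the median day, Pearson's r was 0.130, so the relation rested on those days. The share of B reads in barcodes listed in T had rho 0.643 (exact permutation p = 0.0962, adjusted p = 0.192) and r 0.697 (exact permutation p = 0.0543, adjusted p = 0.0732), and r 0.172 without the 2 days. The share of T reads in barcodes listed in B had rho 0.524 (exact permutation p = 0.197, adjusted p = 0.262) and r 0.662 (exact permutation p = 0.0549, adjusted p = 0.0732), and r 0.200 without them. The log2 ratio of the effective numbers had rho 0.286 (exact permutation p = 0.501, adjusted p = 0.501) and r 0.396 (exact permutation p = 0.327, adjusted p = 0.327), and r −0.237 without them. Without day 494 the first 2 trends had rho 0.857 with adjusted p = 0.0476.

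The late rise lay in group 1, the 6 barcodes bc1 to bc6, which held 48.9% of T and 41.4% of B reads at day 553. With group 1 removed and shares renormalised, the r of T with B was 0.292, 0.243, 0.284, 0.395, 0.281, 0.216 and 0.229 on the 7 days from day 119, in place of 0.593 on the last day. Its rho against day was then −0.0714 (exact permutation p = 0.882, adjusted p = 0.882). The effective number at day 553 was 645 in T and 6321 in B without group 1, against 129 and 700 with it. Same-day T and B still shared more on average than those of different days, by 0.0544 (exact permutation p = 7.44e-05, adjusted p = 0.000744).

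Group 1 was carried by both lineages at like levels. Groups are sets of barcodes, among the 51 that reached 1% of any library, in which every pair had r of at least 0.95 over the 38 libraries on log2(percent + 0.01). A cell with several vector copies gives such a set, and so would clones with a common time course. The T and B libraries are among those used, so group members are not separate support. The ratio of T to B in the summed group 1 share was 2.41, 1.48, 0.509, 1.99, 0.850, 0.752 and 1.18 from day 119 on. It was above 1 on 4 days and below 1 on 3, and at day 32 the group was listed in B only. bc1 held 0%, 0.0631%, 0.0951%, 1.03%, 2.57%, 0.516%, 0.729% and 9.41% of T reads on the 8 days. In B it held 0%, 0.0356%, 0.1001%, 1.71%, 1.29%, 0.580%, 1.05% and 7.73%. The ranges overlap, and both lineages are highest at day 553.

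bc11, which fell into no group, showed the same closeness at a lower level. It was listed at 0 in both lineages at days 32 and 119. In T it then held 0.0150%, 0.441%, 1.03%, 0.114%, 0.190% and 0.0358%, and in B 0.0473%, 1.09%, 0.595%, 0.136%, 0.271% and 0.0449%. T was the higher on 1 day, day 365, and B on 5 days.

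Groups 2 to 8, 43 barcodes together, were T-biased on nearly every day after day 32. The exception was group 4 at day 119. The groups hold only barcodes that reached 1% of some library. None of the 43 reached it in a B library, so none entered through B and this bias is a description. Together the 43 held 37.7%, 51.1%, 46.7%, 37.3%, 42.1%, 60.8% and 21.3% of T from day 119 to day 553. In B they held 5.36%, 2.74%, 1.59%, 1.57%, 0.204%, 0.427% and 0.168% on these days. At day 32 none of the 43 was listed in T, and together they held 0.171% of B. Exact 95% Clopper-Pearson intervals of these and all other group shares were at most 0.105 points to either side. Such intervals reflect the counting of reads alone, and amplified reads that carry no molecular identifier do not each stand for 1 molecule.

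Group 2 (bc7 to bc10) was abundant in T from day 119, and its B values from day 393 were lower than those of days 119 to 365. It held 10.9%, 25.9%, 22.6%, 16.0%, 17.0%, 14.5% and 6.73% of T reads from day 119 to day 553. In B it held 1.13%, 1.95%, 0.887%, 0.771%, 0.0380%, 0.130% and 0.0246%. The ratio of T to B went from 9.65 at day 119 through 20.7 at day 365 and 447 at day 393 to 274 at the end. bc7 held 3.71% ± 2.14 of T reads and 0.163% ± 0.177 of B reads (SD, n = 8 days), which puts T above B at least 22.7-fold. The 7 later T values, 1.74 to 6.96%, all lie above the highest B value, 0.454%.

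Group 3 (11 barcodes from bc12 to bc46) had its highest B share, 3.05%, at day 119, when T held 9.23%, a ratio of 3.03. From day 187 it held 0.461%, 0.305%, 0.297%, 0.0539%, 0.134% and 0.0247% of B. T held 10.5%, 8.47%, 6.98%, 7.56%, 6.13% and 2.95% on those days. All 11 members were listed in T on each of these days, and in B 4 were at day 553. Groups 5, 6 and 7 had the same order, with their highest B share at day 119 (0.547%, 0.180% and 0.282%) and 0.0294%, 0.00609% and 0.00490% at day 553. Groups 6 and 7 were listed at 0 in B at day 494, where a 0 allows up to 0.0127% for a barcode.

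Group 4 (7 barcodes, bc13 the most abundant) had low B shares, at most 0.133%, and its highest T share at day 494. In B it held 0.0206%, 0.0356%, 0.0718%, 0.0599%, 0.133%, 0.0570%, 0.107% and 0.0589% over the course. T of day 32 did not list it, and T of day 119 held 0.0168%, below B, and then 3.94%, 6.92%, 7.46%, 9.46%, 32.9% and 8.74%. bc13 was listed in all 8 B libraries at 0.0073 to 0.0314% and reached 5.65% in T at day 494. bc18 held 0%, 0.0044%, 0.501%, 1.13%, 1.31%, 1.32%, 4.82% and 1.72% of T and at most 0.0242% of B. Its mean was at least 122-fold higher in T, and at least 79.4-fold without day 494. Group 8 (bc47, bc48, bc50, bc51 and bc52) had ratios of T to B from 36.5 to 346 after day 32, with 5.98% of T and 0.132% of B at day 119 and 0.833% and 0.0191% at day 553.

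**Figure D2:**
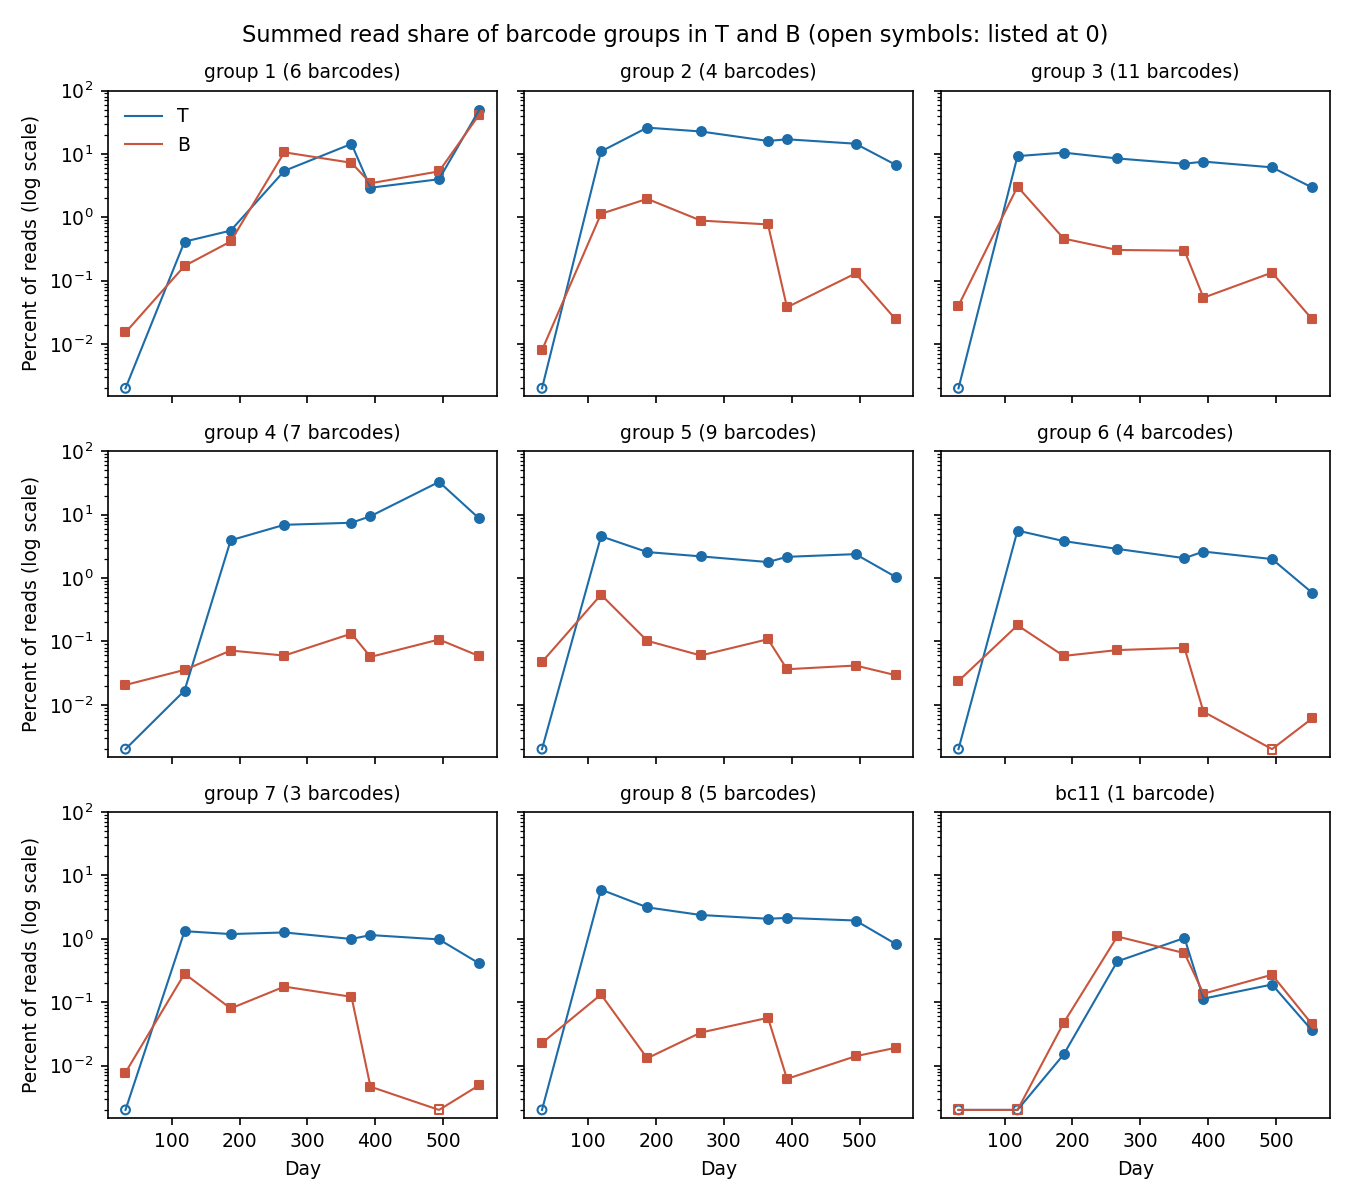
Summed read share of each barcode group and of bc11 in T (circles) and B (squares) by day, on a log scale in percent of the library; open symbols at the bottom mark a group listed at 0. T and B run together in group 1 and bc11 and lie apart in groups 2 to 8 after day 119.

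Single barcodes were tested between T and B with edgeR's quasi-likelihood test, with the day as a block. The 317 barcodes tested held at least 0.05% of reads in at least 2 of the 16 libraries. Of these, 117 reached it in T libraries alone, 99 in B libraries alone and 101 in both. These barcodes held 48.3 to 81.7% of T reads after day 32 and 8.78 to 46.6% of B reads. Serial libraries of 1 animal are not independent samples, and these p-values take them as such. 81 barcodes (25.6% of those tested) were called at adjusted p under 0.05, 57 higher in T (18.0%) and 24 higher in B (7.57%). The median log2 difference over all 317 was 0.12. Of the 57, 48 had reached the minimum through T alone, and 22 of the 24 through B alone. Entry through 1 lineage alone favours a difference in that direction, though not all such barcodes were called, so these counts are a description.

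Of the 57 called higher in T, 10 were listed at 0 in all B libraries and 36 were listed in B on 2 days or fewer. Their peak in a T library was 0.0562 to 6.96% (median 0.288%), and their means were at least 5.58 to 167-fold above B. 14 of the 57 were members of groups 2 to 8. By group, 3 of 4 members of group 2 were called, 3 of 11 of group 3, 3 of 7 of group 4, 1 of 9 of group 5, 2 of 4 of group 6, 0 of 3 of group 7 and 2 of 5 of group 8. The number of the 43 members called depended on the setting. It was 42 by DESeq2 and with the 0.01% minimum, 43 with each 0 at 100 reads, 19 without the day block, 10 with TMM factors, 5 with no minimum and 6 to 36 with 1 day left out, lowest without day 187 or 494 and highest without day 32. None was called the other way. The median log2 difference of the members was 4.71 to 7.47 in groups 2 to 8 and −0.03 in group 1. None of the 6 members of group 1 was called (log2 −0.27 to 0.17, adjusted p 0.807 to 0.902).

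bc7 differed by a log2 of 5.33 ± 0.94 (SE, adjusted p = 0.0075 by edgeR). It was not called without the day block (adjusted p = 0.0633) or with no minimum (adjusted p = 0.565). bc18 differed by 7.06 ± 1.07 (SE) and was not called with no minimum. bc64 had 0%, 0.146%, 0.218%, 0.249%, 0.107%, 0.223%, 0.252% and 0.0939% in T and was listed in B at day 266 only, at 0.0042%. By its mean it exceeded B at least 32.9-fold, and it was not called without day 266. bc113 held 0.288%, 0.0540%, 0.160%, 0.0370%, 0.124% and 0.0523% of T from day 187. It was never listed in B, and its T mean was at least 18.7-fold above the limit there, and at least 12.2-fold without day 187. bc123, at least 16.3-fold above it and 11.8-fold without day 494, held 0.0035% of T at day 119, 0.321% at day 494 and 0.0150% at day 553. bc18, bc64, bc113 and bc123 entered the test through T alone, which favours a difference in that direction, so no p is given for them.

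The 24 barcodes called higher in B had small shares. Their highest share in a B library was 0.0531 to 0.288% (median 0.0850%), all 24 were listed in B on 6 days or more, and 20 were listed in T on 2 days or fewer. None belonged to a group, for which 1% of some library was needed, above their highest B share. bc387 held 0.0053%, 0.0073%, 0.0302%, 0.0267%, 0.0813%, 0.0285%, 0.106% and 0.0443% of B on the 8 days and was listed in T once, at 0.0066% at day 365. Its mean was at least 8.004-fold higher in B. It was called in each alternative fit that tested it, and without day 365 or day 494 it fell below the minimum. bc471 was at least 6.10-fold higher in B, and it was not called without day 553 or without the day block. bc602 was at least 6.38-fold higher in B and was not called without day 119. bc387, bc471 and bc602 entered the test through B alone, which favours a difference in that direction, so no p is given for them. bc267, named after its values were seen, was called higher in B although its mean was 0.0249% in T and 0.0172% in B, since B was the higher on 6 days and T on 1.

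**Figure D3:**
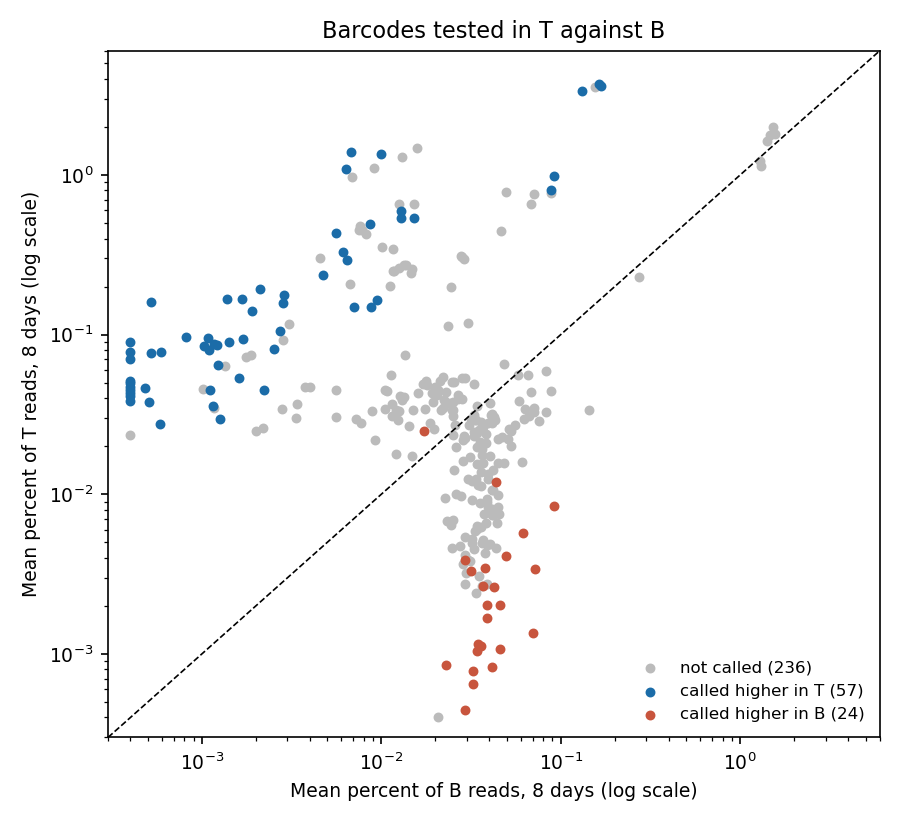
Mean percent of reads over the 8 days in B (x axis) and T (y axis), both on log scales, for the 317 barcodes tested; the dashed line marks equal shares and points at the left or lower edge have a mean of 0. The barcodes called higher in T reach a mean of 3.71% (bc7), while the barcodes called higher in B all lie below 0.1% of B.

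The balance of calls turned with the minimum share. With barcodes of at least 0.01% in 2 libraries, 5212 were tested and 154 were called higher in T and 912 higher in B. The 912 had a highest B share of 0.0272% in the median, were listed on a median of 7 B days and 1 T day, and together held 3.13 to 24.3% of B reads. With no minimum, 40339 were tested and 1773 and 8579 were called. Without 1 of the days the number called was 28 to 121. It was 121 when day 32 was left out, 50 for day 119, 46 for day 187, 30 for day 266, 45 for day 365, 50 for day 393, 28 for day 494 and 52 for day 553. DESeq2 called 102 higher in T and 112 higher in B, edgeR with each 0 at 100 reads called 127 and 83, and edgeR without the day block called 67 and 8. No barcode of the 81 was called the other way in any of these fits.

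Barcodes never listed in T stayed at low shares of B. Among barcodes never listed in T, the 5 with the highest mean in B were bc785 (0.0299% ± 0.0190, SD, n = 8 days), bc627 (0.0288% ± 0.0159), bc872 (0.0282% ± 0.0136), bc944 (0.0267% ± 0.0097) and bc559 (0.0265% ± 0.0212). bc944 held 0.0143%, 0.0230%, 0.0258%, 0.0307%, 0.0429%, 0.0239%, 0.0365% and 0.0162% of B. Its mean was at least 5.45-fold above the limit in T. The highest barcodes never listed in B reached higher means in T, 0.0894% in bc113, 0.0870% in bc155, 0.0779% in bc123, 0.0703% in bc144 and 0.0514% in bc234. bc155 was listed at day 32 only, at 0.696% of T.

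Some barcodes had about equal means in the lineages at low levels, though not equal shares on each day. Of those listed on at least 7 days in each lineage, bc82, bc362, bc430, bc580 and bc825 had the closest means. These 5 were chosen for that closeness, so it is a description. bc82 held 0%, 0.0407%, 0.0387%, 0.0750%, 0.0769%, 0.0730%, 0.126% and 0.0147% of T and 0.0055%, 0.0193%, 0.0532%, 0.0426%, 0.0883%, 0.0459%, 0.136% and 0.0685% of B. The values of T and B overlap and T was the higher on 3 of 8 days. bc362 held 0.0253% of T and 0.0034% of B at day 393, the day on which it was least equal among those with both values above 0.

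Each listed barcode was also classed day by day by its share in the 2 lineages. Barcodes listed in T only or at least 10-fold higher in T held 67.8% ± 18.5 of T reads (SD, n = 8 days), and 63.3% ± 14.5 without day 32. Those in T only held 65.4%, 36.3%, 23.9%, 26.5%, 14.1%, 30.3%, 31.1% and 20.1% of T reads on the 8 days. With only barcodes that reached 0.02% in 1 of the 2 libraries, they held 65.2%, 3.70%, 10.9%, 10.4%, 4.56%, 16.4%, 27.5% and 9.88%. T-biased barcodes then held 55.4% of T reads on average. Those in both but at least 10-fold higher in T numbered 18 to 169 and held 34.0%, 25.1%, 51.6%, 43.4%, 40.9%, 36.1%, 47.8% and 15.9% of T reads. Barcodes in both within 10-fold held 0.600% of T at first, 21.1 to 45.0% from day 119 to day 494 and 63.9% on the last day.

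In B the barcodes listed in that lineage only were the largest class on every day but day 553. Barcodes listed in B only held 98.7%, 59.6%, 82.8%, 59.7%, 53.1%, 55.0%, 71.0% and 42.5% of B reads. Barcodes within 10-fold held 0.0767%, 38.7%, 14.3%, 38.4%, 44.8%, 43.1%, 28.4% and 57.1%. Barcodes in both but at least 10-fold higher in B numbered 0 to 29 and held at most 1.61% of B reads. Over only those barcodes that reached 0.02% in 1 of the 2 libraries, barcodes biased to B held 13.1% of B reads on average, against 65.7% over all listed, so on average most of the B-only reads lay in barcodes below that share. Day 494 was the exception, with 50.3 of its 71.0% of B-only reads in barcodes at or above it.

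**Figure D4:**
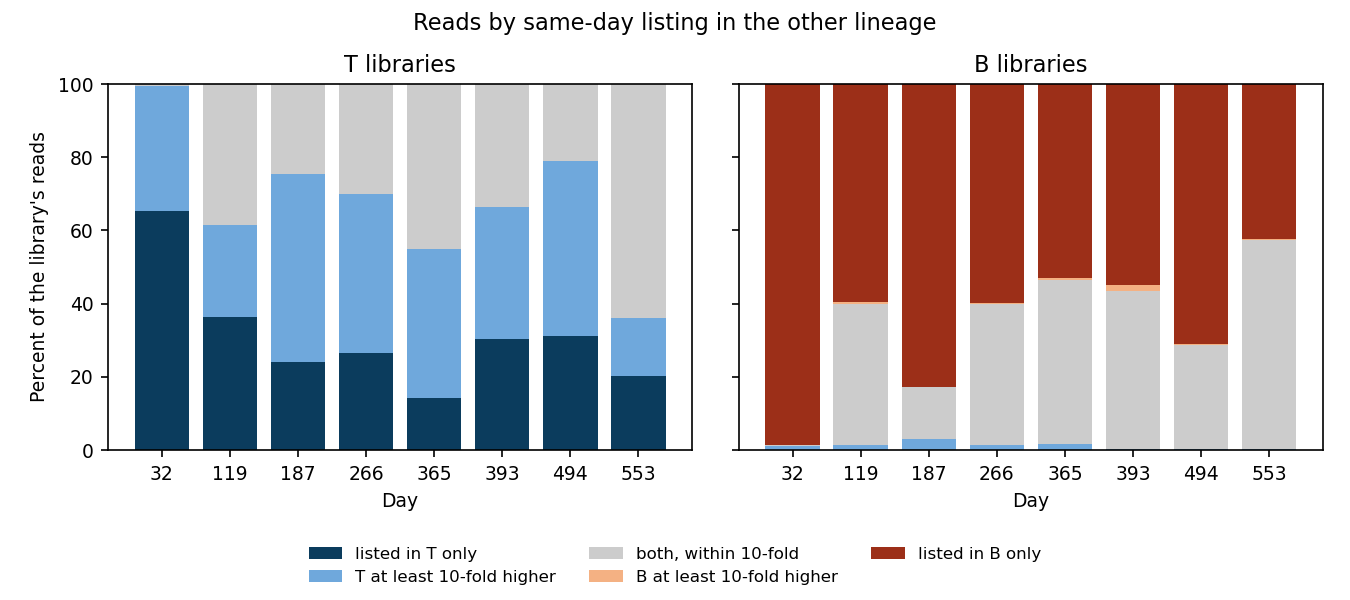
Percent of T reads (left) and B reads (right) on each day by how the barcode was listed in the 2 lineages of that day, stacked to 100%. The grey class shared within 10-fold is largest on day 553 in both lineages, 63.9% in T and 57.1% in B.

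No barcode showed a change in the ratio of T to B with time that passed in edgeR with the 0.05% minimum and the day block. In the edgeR fit of a slope difference per 100 days, 0 of 317 barcodes (0.00%) were called, while 45 had an unadjusted p under 0.05. DESeq2 called 91. bc7 had a slope of 1.12 ± 0.43 on the log2 scale per 100 days (unadjusted p = 0.0314, adjusted p = 0.319 by edgeR). The members of group 1 had slopes of −0.29 to 0.52 (adjusted p 0.863 to 1). The growing ratios of groups 2 and 3 given above are values of single days, and no member of these groups passed in the edgeR fit with the 0.05% minimum.

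Day 32 preceded all of this and held mostly other barcodes in T. Of the 525 barcodes listed in T, 174 were listed in B of that day, 176 in a later T library and 289 in a later B library. Of the 15815 listed in B at day 32, 7996 were listed in a later B library and 4769 in a later T library. T of day 32 had r of −0.005 to 0.005 with the 15 other libraries, and B of day 32 had −0.036 to 0.003. The T leader of that day, bc87, held 1.07%, and the B leader, bc3787, 0.0771%. The base composition of the random part was close between the lineages, with a read-weighted GC content of 53.2 to 55.8% in T and 53.3 to 54.7% in B.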

How the data were processed

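The authors deposited 1 table of read counts, 44423 barcode sequences of 50 bases by 38 libraries. Whole numbers with unlike column sums mark the values as raw counts. Per the labels' protocols, barcode PCR started from 200 ng of DNA and ran for 28 cycles. No label names the program that read the barcodes. Column sums are reads of kept barcodes only.

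Shares are percents of the column sum. Matched differences over days were tested with exact sign-flip permutation, same-day similarity with exact permutation of day pairings, and trends with exact permutation, all two-sided with Benjamini-Hochberg adjustment (10 and 4 tests). Barcodes were fitted with edgeR 4.0.16 (R 4.3.3) on all barcodes passing the minimum, scaled by column sums, with the day as a block. The pairing by day comes from the labels. The SE is the log2 difference over the square root of F. DESeq2 1.42.0 was an alternative. On simulated counts (568 barcodes passing the minimum) the T against B fit called 54.4% of the changed and 0% of the unchanged barcodes. For the slope difference (550 barcodes) these were 53.3% and 0%. The simulated counts were drawn independently, with the same dispersion for all barcodes and, for unchanged barcodes, the same mean share on all days. These rates may therefore not hold for the serial libraries here.

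Named barcodes are the 5 highest means in each lineage, the members of groups reaching 5% in T or B, the 5 largest called changes each way, the 5 highest means among barcodes confined to 1 lineage, and the 5 most equal. Members, lists and rules were chosen with earlier results of these data known. Libraries are serial samples of 1 animal, so p-values refer to this animal's days only.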

Additional observations from a re-analysis of the deposited data

Results flagged for a closer look

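29 sets of 8 daily values were examined for a single value far from the rest, and 10 had one. For independent, normally distributed values the rule flags about 1 in 20. These values are serial shares and some sets hold the same reads, so that rate may not apply to them. At day 553 the 10 most abundant barcodes held 41.7% of B reads, and group 1 held 48.9% of T and 41.4% of B. At day 32 the share of T reads in barcodes listed in B was low, at 34.6%. At day 119 the B shares of group 3 (3.05%), group 5 (0.547%), group 6 (0.180%) and group 8 (0.132%) stood above those of all other days. Group 4 stood out in T at day 494 with 32.9%, in the shallowest T library, and bc11 in T at day 365 with 1.03%. Data outside the comparison held 1 further value. In the T library of day 536, which has no B partner, 95.9% of reads lay in barcodes listed in some B library. Its r was 0.835 with T of day 494, 0.746 with T of day 553, 0.359 with B of day 494 and 0.411 with B of day 553.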

How the results depend on the processing

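The lower effective number, the larger top-10 share and the larger shared share of T kept direction and threshold without any 1 day. The difference in listed barcodes was −1.97 to −1.26 (log2) without 1 day and −0.93 (adjusted p = 0.0521) after thinning to the smallest library. With the 0.02% floor the values were −0.49 for listed barcodes, −1.50 for the effective number, 15.2 points for the top 10 and 10.8 points for shared reads, none past the threshold, and the trend of the effective-number ratio had rho −0.119. Without the leading group, the similarity of T to B exceeded that of B to Gr by 0.0444 and to Mono by 0.0586, and the similarity trend had rho −0.0714. As overlap of shares those differences were 0.584 and 4.09 points. On the log2 scale the similarity of neighbouring days was higher in T by 0.265 (adjusted p = 0.0312). Without 1 day, the similarity of T to B minus B to Mono was −0.0469 to 0.0027, the trend of the effective-number ratio had rho −0.0714 to 0.679, and the trends of shared B reads and of similarity 0.464 to 0.857. Calls in T against B were 28 to 121 without 1 day, 65 with TMM factors (41 higher in T), 75 without the replicate block (67 higher in T), 210 with each 0 at 100 reads, 214 by DESeq2, 1066 with the 0.01% minimum and 10352 with none. Slope calls were 0 without any 1 day, 3 without the replicate block, 9 with the 0.01% minimum, 24 with each 0 at 100 reads, 91 by DESeq2 and 1828 with no minimum. With the 0.02% floor, T-biased barcodes held 55.4% of T reads and B-biased barcodes 13.1% of B reads. The causes were not tested. Merging near-identical sequences gave no values, since no pair met the rule. Depth limits day 494 most: a barcode below 0.0131% of T or 0.0127% of B cannot be seen there.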
